A study of Mus musculus with 11 samples.

Results

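Phase II conjugation enzymes are described here in mouse livers after short induction of YAP. The members are the genes whose symbols begin with Ugt1a, Ugt2a, Ugt2b, Ugt3a, Sult, Gsta, Gstm, Gsto, Gstp, Gstt or Mgst followed by a number, and 59 of the 20893 genes in the deposited table met this rule. Of these, 52 reached 0.5 eRPKM in at least 3 of the 11 libraries and were tested. The other members, Gsto2, Gstt4, Sult1c1, Sult2a6, Sult2b1, Sult4a1 and Ugt2a2, stayed under that level. The unit, eRPKM, is the authors' RPKM over exons: reads divided by exon length and by the size of the library, so levels of different genes are compared per length.

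Phase II enzymes attach a polar group to bilirubin, steroids, bile acids, drugs and products of phase I oxidation, so that the conjugate can leave the hepatocyte in bile or blood. UDP-glucuronosyltransferases (Ugt) transfer a sugar from a UDP-sugar, sulfotransferases (Sult) transfer sulfate from the donor PAPS, and glutathione S-transferases (Gst, and the membrane-bound Mgst) join glutathione to electrophiles. The liver is their main site, and in mice several Sult, Ugt and Gst genes are known to differ between the sexes under the control of growth hormone pulses.

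Whole liver of C57BL/6 mice was profiled by RNA-seq in 11 libraries. Each library is called a liver here, although the labels do not say that each came from a separate mouse. The 4 controls carried ROSA26-rtTA-IRES-EGFP without the YAP transgene and ate doxycycline food for 7 days. The induced livers carried ROSA26-rtTA-IRES-EGFP and tetYAP, a constitutively active YAP under a doxycycline-responsive promoter, with doxycycline food for 3 days (n = 4) or 7 days (n = 3). Alb-Cre, which is active in the hepatocyte lineage, released the transactivator in this line, and no control carried tetYAP without induction. The ages of the mice were not given in the sources used here.

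The level of Yap1 itself did not separate the groups, with 13.9 to 21.1 eRPKM in controls, 15.3 to 19.3 after 3 days and 17.4 to 19.0 after 7, and why was not tested. The known YAP targets Cyr61 and Ctgf followed the labels, Cyr61 reading 5.76 to 14.4 eRPKM in controls, 26.8 to 53.4 after 3 days and 90.5 to 91.4 after 7. The libraries held 1251396 to 5495697 reads on genes in controls, 2660233 to 3681416 after 3 days and 5312486 to 5941357 after 7. The 3-day range lay within that of the controls, and the 7-day libraries were on the whole the deepest. No gene exceeded 1320 to 1549 reads per kilobase of exon in any library, although depth differed 4.75-fold, and the eRPKM of genes near that height therefore ran against depth. The labels do not give the sex. By reads of Xist and the Y-linked Ddx3y, 2 controls, 2 livers at 3 days and all 3 livers at 7 days were female and none at 7 days was male. Results for the members were therefore also computed in the female livers alone and with log2 Xist as a covariate. In bulk liver, fewer cells of a type and less RNA per cell cannot be told apart.

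After 3 days no member passed the threshold, and after 7 days 17 of the 52 tested members fell and 2 rose. The falls lay mainly in the Ugt and Sult families and in the theta class of Gst, while the only rises, Gstm2 and Gstm5, lay in the mu class. A gene was called when the limma adjusted p was under 0.01 and the log2 fold change, on the scale of log2(eRPKM + 0.5), was beyond 0.5 in either direction. This scale understates the change of low genes. Among all 14244 genes tested, 0.0421% rose and 0.00% fell at 3 days, and 18.0% rose and 5.77% fell at 7 days, 23.8% in all. The share of members that fell at 7 days was thus 32.7%, and the share that rose was 3.85%.

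The median log2 fold change of the tested members was 0.01 at 3 days, where the median of all genes was 0.02. At 7 days it was -0.86, with 0.26 over all genes. The levels of 25 members lay lower in every 7-day liver than in every control, against 13.3% of all genes, and those of 2 members lay higher in every one, against 36.7% of all genes. At 3 days 2 members lay below every control and none above, with 2.25% of all genes below and 3.38% above. The limma test called 0 members, 6 (11.5%) had an unadjusted p under 0.05, as 12.1% of all genes did, and limma-voom on the recovered reads also called none. The scaling changed the balance of calls: with median-ratio size factors the median of all genes at 7 days moved by -0.23, 13.7% of all genes rose and 8.80% fell, and 19 members fell with 0 rises. With quantile normalization 1857 of all genes rose and 1821 fell at 7 days (13.0% and 12.8%), where the reported scaling gave 2561 and 822 (a shift of the median of -0.34), while 2 members rose and 19 fell.

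**Figure D1:**
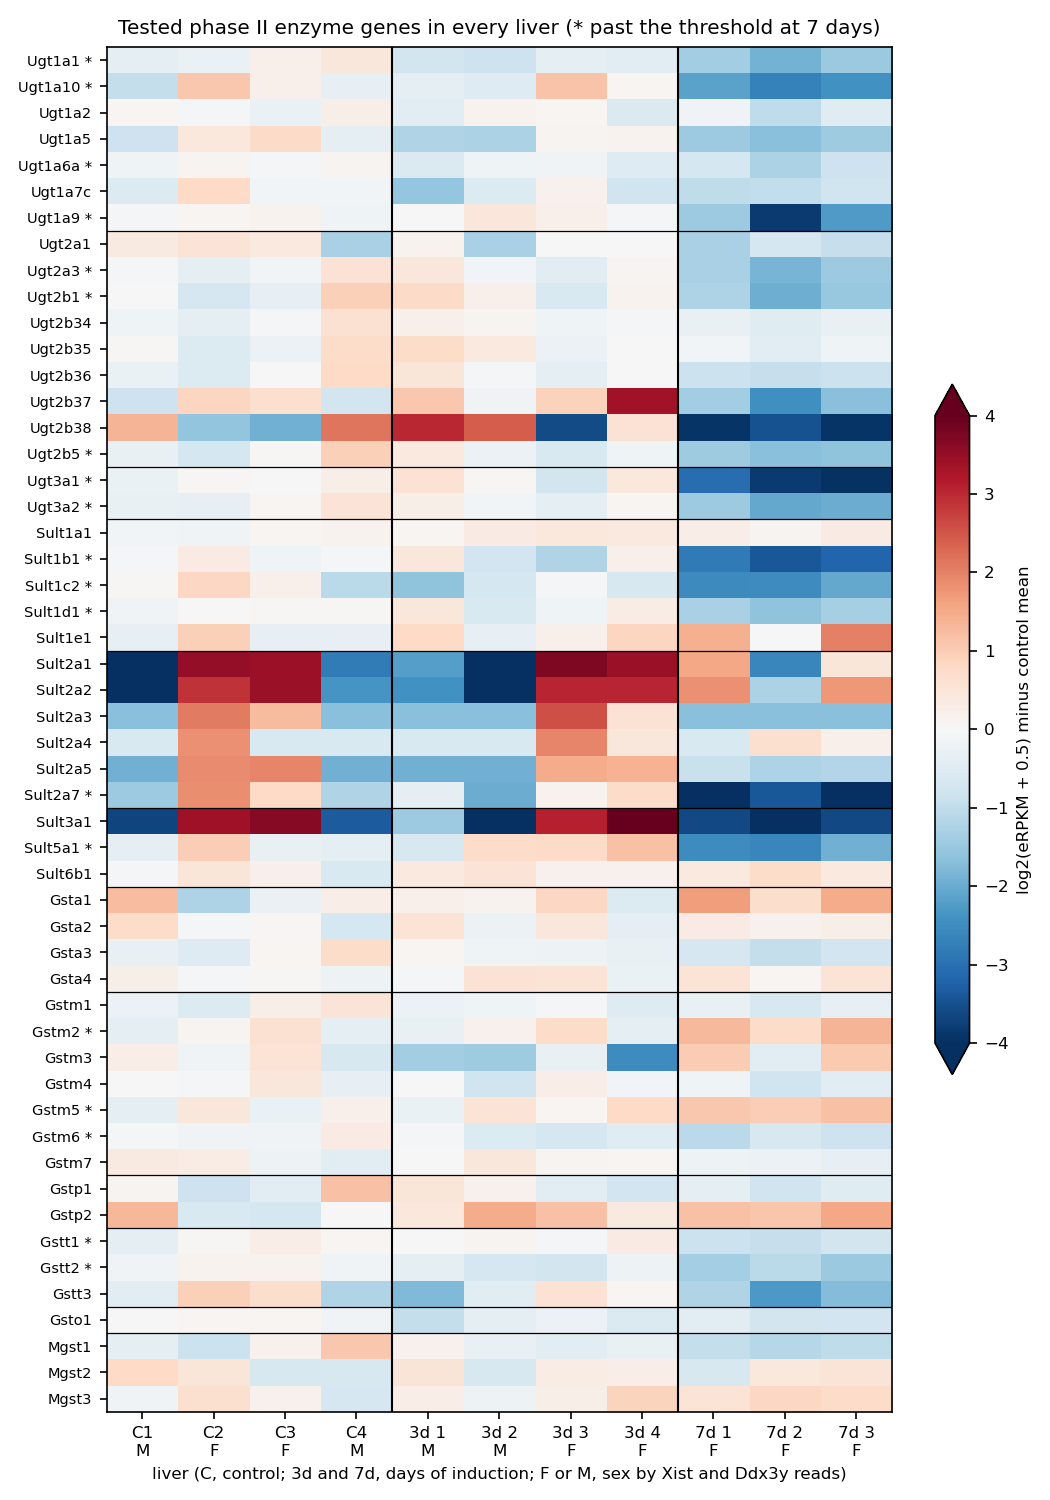
Heat map of the 52 tested members (rows, grouped by family) in the 11 livers (columns, with F or M for the sex by reads). Colour shows log2(eRPKM + 0.5) minus the mean of the 4 controls, blue for lower and red for higher, and an asterisk marks the 19 members called at 7 days. The Ugt3a, Ugt1a and several Sult rows were blue in all 3 livers at 7 days, and in controls and at 3 days Sult3a1 and the Sult2a rows other than Sult2a4 were higher in each female than in each male liver.

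**Figure D2:**
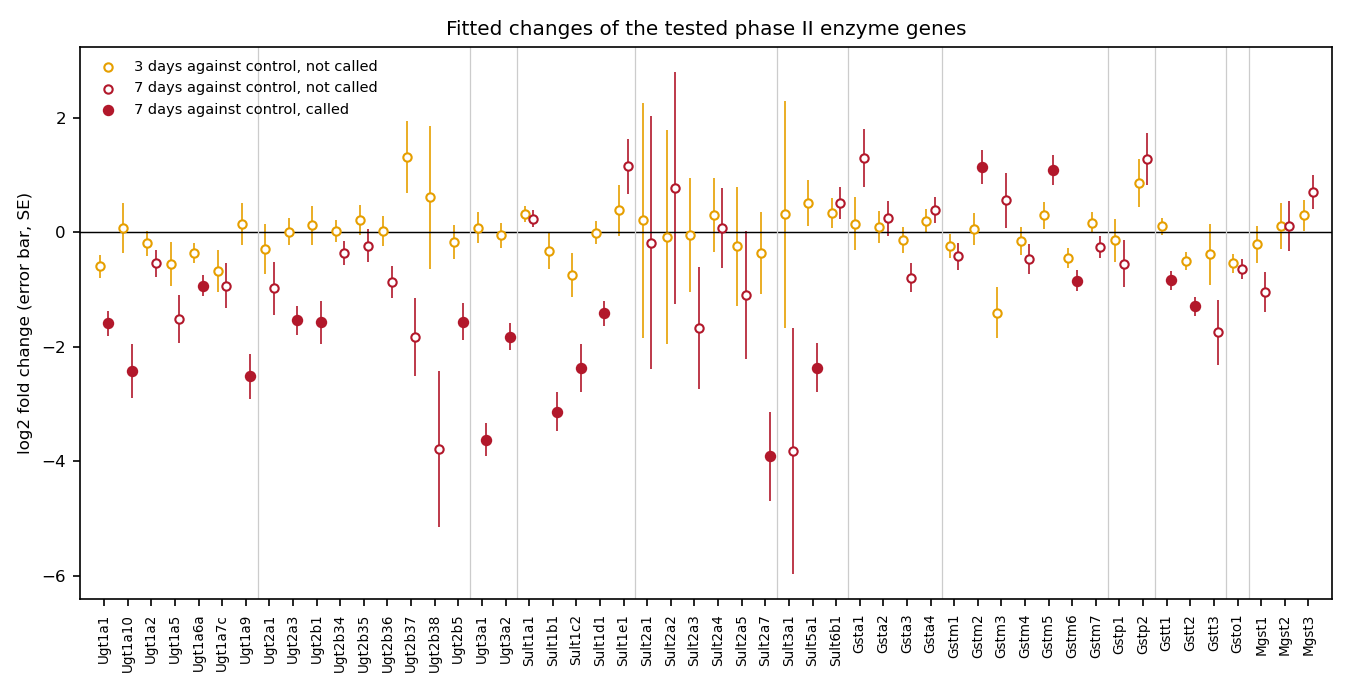
Fitted log2 fold changes against control with their SE for the 52 tested members, at 3 days (orange) and at 7 days (red, filled where called). No point at 3 days was called, and of the 19 filled points 17 lay below 0.

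Of the 17 members that fell, 10 were called in all 28 alternative fits: Ugt1a1, Ugt1a9, Ugt2a3, Ugt3a1, Ugt3a2, Sult1b1, Sult1c2, Sult1d1, Sult5a1 and Gstt2. In the 7 female livers alone, 19 members fell and 1 rose, where 4.25% and 10.7% of all genes did, and 14 of the 17 falls were shared. Gstm6, Ugt1a6a and Ugt2b1 were not called there, and Gstt3, Sult2a3, Sult2a5, Sult3a1 and Ugt1a5 were added. The 1 rise there was that of Gstp2, and Gstm2 and Gstm5 were not called. With log2 Xist as a covariate in all livers 21 members fell and 1 rose, 15 of the 17 falls were shared, Gstm6 and Ugt2b1 were lost, and so were both rises. Marker genes of other cells moved at the same time. The summed level of 4 macrophage markers was 134 to 259 eRPKM in controls and 459 to 532 at 7 days, with 2 of 4 called as risen. For 5 endothelial markers it spanned 53.4 to 105 in controls, then 144 to 175, with 2 called. For 6 cholangiocyte markers it spanned 37.7 to 49.1 in controls, then 61.6 to 112, with 1 of 5 tested called. Of 7 hepatocyte markers 2 fell, and the sum of the 7 was 1472 to 4544 in controls and 1121 to 1261 at 7 days. The raw reads on Alb, 1 of these markers, were 2417 to 3102 in controls and 2840 to 2934 at 7 days. Its eRPKM thus ran against depth, and the sum does not measure the share of hepatocytes. Of 2 tested neutrophil markers 1 rose, and none of 5 stellate cell, 3 T cell and 3 B cell markers was called. No tested marker was at 0 in every liver, and the part of other cells in the results was not tested.

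The largest called fall among the glucuronosyltransferases was that of Ugt3a1. The Ugt3 enzymes differ from the others in their sugar donors, using UDP-N-acetylglucosamine or UDP-glucose in place of UDP-glucuronic acid, and both genes lie side by side on chromosome 15 (Ugt3a1 at chr15:9209584-9244787 and Ugt3a2 at chr15:9265305-9300710, mm9). Ugt3a1 stood at 74.9, 92.7, 88.4 and 105 eRPKM in control livers 1 to 4, 133, 92.9, 53.8 and 121 at 3 days and 10.3, 5.80 and 5.28 at 7 days. The 3-day livers overlapped the controls, and all 7-day livers lay far below both groups. The log2 fold change at 7 days was -3.62 (adjusted p = 4.13e-06, SE 0.29), from a mean of 90.2 ± 12.4 (SD, n = 4) to 7.13 ± 2.76 (SD, n = 3). Ugt3a2 was the higher of the pair, at 123, 122, 160.3 and 219.7 eRPKM in control livers 1 to 4, 177, 141, 116 and 159 at 3 days and 55.4, 36.3 and 38.3 at 7 days. All 7-day livers were again below every control and every 3-day liver, with a log2 fold change of -1.82 (adjusted p = 7.9e-05, SE 0.23). In the female livers alone the log2 fold changes were -3.63 ± 0.36 (SE) for Ugt3a1 and -1.70 ± 0.24 for Ugt3a2. The raw reads on Ugt3a1 were 676, 1182, 493 and 304 in the controls and 128, 80 and 65 at 7 days, although the 7-day libraries were deeper than 3 of the 4 controls.

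The promoter of Ugt3a1 (RefSeq on GRCm38.p6, chr15:9279579-9279878, plus strand) is shown because it belongs to the Ugt gene with the largest called fall on the log2(eRPKM + 0.5) scale. It runs from 250 bases before to 50 bases after the start of the transcript, and capitals mark the letters GGAATG, read on either strand, which TEAD, the DNA-binding partner of YAP, is known to prefer. The match lies at position -188 from the start. These letters occurred in 14.7% of all 32851 RefSeq promoters and in 11 of the 62 promoters of members, so a match is a description and not a binding site.
Ugt3a1 promoter: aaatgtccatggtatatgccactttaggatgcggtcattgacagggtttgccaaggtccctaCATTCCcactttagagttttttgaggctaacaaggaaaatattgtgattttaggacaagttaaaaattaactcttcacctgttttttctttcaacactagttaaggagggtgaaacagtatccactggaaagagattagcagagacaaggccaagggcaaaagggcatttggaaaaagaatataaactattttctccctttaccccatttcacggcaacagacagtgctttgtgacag

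**Figure D3:**
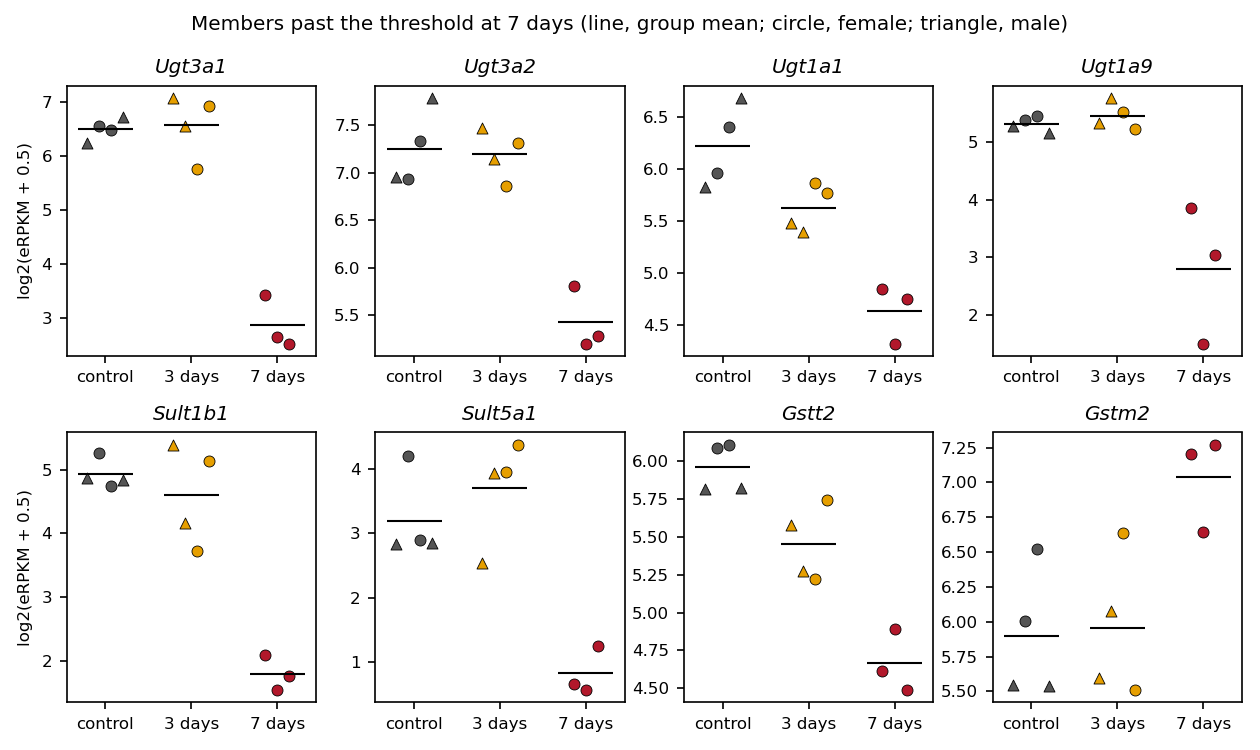
Level of 8 called members in every liver as log2(eRPKM + 0.5), by group, with a line at the group mean, circles for female and triangles for male livers. For Ugt3a1, Ugt3a2, Ugt1a1, Ugt1a9, Sult1b1, Sult5a1 and Gstt2 all 7-day livers lay below all controls and all 3-day livers, and for Gstm2 all 3 lay above.

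All 7 Ugt1a genes were lower at 7 days, and 4 of them passed the test. Ugt1a1, the enzyme that conjugates bilirubin, had the highest control level of the family, at 56.4, 62.0, 84.6 and 102 eRPKM in control livers 1 to 4, 44.1, 41.7, 58.0 and 54.2 at 3 days and 28.3, 19.4 and 26.4 at 7 days. Every 7-day liver was below every 3-day liver, while 1 of the 3-day livers, liver 3, reached the range of the controls. Its log2 fold change was -1.59 (adjusted p = 0.000142, SE 0.22) at 7 days and -0.59 (adjusted p = 0.257, SE 0.20) at 3 days, where it was not called. Ugt1a9, which conjugates phenols, was even across controls and 3-day livers, at 38.2, 41.1, 43.1 and 35.2 eRPKM in control livers 1 to 4, 39.9, 53.8, 45.4 and 37.0 at 3 days and 14.0, 2.33 and 7.78 at 7 days. The 7-day livers spread widely for their level, and all lay below the other livers, with a log2 fold change of -2.51 (adjusted p = 0.000353, SE 0.39).

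Ugt1a10 (-2.42) and the phenol-conjugating Ugt1a6a (-0.93) also fell. Without 7-day liver 2 neither was called any more, at -2.28 for Ugt1a10 and -0.76 for Ugt1a6a, and Ugt1a6a was also lost in the female livers (-0.96 ± 0.22). Ugt1a5 (-1.51, adjusted p = 0.0121), Ugt1a7c (-0.93) and Ugt1a2 (-0.54) did not pass. Ugt1a5 was called in the female livers (-2.10 ± 0.18), without control liver 1 (-1.79) and without 3-day liver 1 or 3 (-1.51 in each case). Calls also came with log2 Xist as a covariate (-2.03), median-ratio size factors (-1.77), quantile normalization (-2.01) and limma-voom on the recovered reads (-1.57). So they did in a fit of the compared groups alone (-1.51) and with scaling to genes under 300 reads per kilobase (-1.81). The Ugt1a genes lie in one cluster on chromosome 1, each with its own first exon and all with the same later exons, and 58.0% to 85.4% of the 50-base words of each transcript recur in other genes. How reads on the shared exons were assigned is not given in the sources used here, so the separate values of these genes are uncertain. The called falls of the family may rest in part on the same reads, and the family sum may count some reads more than once. The sum over the family was 209 ± 30.1 eRPKM (SD, n = 4) in controls, 166 ± 25.4 (n = 4) at 3 days and 76.6 ± 19.4 (n = 3) at 7 days, and the ranges of the controls (166 to 232) and the 7-day livers (55.6 to 93.9) did not overlap.

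All 9 tested members of the Ugt2 family were lower at 7 days, and 3 fell. These enzymes conjugate steroids, bile acids and drugs, and all lie in one cluster on chromosome 5. Ugt2b1 had the highest control level, at 271, 168, 212 and 520.3 eRPKM in control livers 1 to 4, 453, 307, 173 and 293 at 3 days and 113, 68.6 and 91.9 at 7 days. The 7-day livers were below all others, but the controls spanned a wide range, with the shallowest library, control liver 4, at the top. The fitted change was -1.57 (adjusted p = 0.00536, SE 0.37) on the log2 scale. The call was lost without control liver 1 (-1.56) or 4 (-1.25) and without 7-day liver 1 (-1.74), 2 (-1.38) or 3 (-1.59), in the female livers (-1.08 ± 0.28) and with log2 depth as a covariate (-0.85), and in all it held in 19 of 28 alternative fits.

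Ugt2a3 fell from 221 ± 67.3 (SD, n = 4) to 74.5 ± 14.4 (SD, n = 3), a log2 fold change of -1.54, and Ugt2b5 from 248 ± 132 (SD, n = 4) to 76.3 ± 7.51 (SD, n = 3), a log2 fold change of -1.56. Ugt2b5 was no longer called without 7-day liver 2 (-1.50) or 3 (-1.54), and it shares 41.1% of its 50-base words with other genes, mostly with Ugt2b38. The other highly expressed members were not called: Ugt2b36 (-0.87), Ugt2b34 (-0.36) and Ugt2b35 (-0.24). Ugt2b36 was called without control liver 2, at -1.05. Ugt2b37 stood at 86.1 eRPKM in 3-day liver 4 and between 1.04 and 17.1 in the other livers. It missed the threshold against control (-1.83) and was called without that liver (-1.83). Ugt2b38, a male-higher gene, had 0, 2 and 0 reads in the 7-day livers, all female, and was called at 7 days only without 3-day liver 3 or in a fit of the compared groups alone (-3.78 in each).

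The cytosolic sulfotransferases of the Sult1 family, which act on phenols, thyroid hormone, catecholamines and oestrogens, split into an abundant gene that was not called and 3 genes that fell. Sult1a1, the phenol sulfotransferase with the highest control level, stood at 186, 182, 213 and 221 eRPKM in control livers 1 to 4, 212, 253, 271 and 261 at 3 days and 242, 215 and 251 at 7 days. The groups overlapped, and the log2 fold change at 7 days was 0.24 (adjusted p = 0.232, SE 0.15). Its reads were among the highest of all genes, up to 1375 per kilobase, and with quantile normalization it was called as risen, at 0.89. Sult1a1 also overlaps the exons of Ccdc101, and reads of the pair cannot be separated by strand.

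Sult1b1 (chr5:87942364-87967220, mm9), which sulfates thyroid hormone and small phenols, had the largest fall of the family, at 28.6, 37.8, 26.3 and 28.1 eRPKM in control livers 1 to 4, 41.4, 17.4, 12.6 and 34.5 at 3 days and 3.75, 2.40 and 2.89 at 7 days. At 3 days the livers spread on both sides of the controls, and at 7 days all were below every other liver. Its log2 fold change was -3.13 (adjusted p = 2.94e-05, SE 0.34) at 7 days and -0.33 (adjusted p = 0.715, SE 0.32) at 3 days. The neighbouring Sult1d1, a catecholamine sulfotransferase, fell from 112 ± 6.95 (SD, n = 4) to 41.8 ± 4.61 (SD, n = 3), and Sult1c2 on chromosome 17 fell from 15.5 ± 7.77 (SD, n = 4) to 2.32 ± 0.579 (SD, n = 3). The log2 fold changes were -1.41 and -2.37. Sult1e1, the oestrogen sulfotransferase, remained near the floor, with at most 2.03 eRPKM, and was not called (1.15).

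One of the RefSeq promoters of Sult1b1 (GRCm38.p6, chr5:87536173-87536472, minus strand, shown 5′ to 3′) is printed because it was the only member promoter to hold the letters CAAAGTCCA, which the hepatocyte factor HNF4A is known to prefer and which occurred in 0.475% of all promoters. Here these letters start at position 26 after the transcript start and run into GGAATG on the opposite strand, which starts at position 33. The overlap of both was found in 1 of 32851 promoters and was looked for after the match had been seen. Capitals mark these letters and GCGTG, the core of the AhR response element, at position -196. A second promoter of the gene held none of the letters searched.
Sult1b1 promoter: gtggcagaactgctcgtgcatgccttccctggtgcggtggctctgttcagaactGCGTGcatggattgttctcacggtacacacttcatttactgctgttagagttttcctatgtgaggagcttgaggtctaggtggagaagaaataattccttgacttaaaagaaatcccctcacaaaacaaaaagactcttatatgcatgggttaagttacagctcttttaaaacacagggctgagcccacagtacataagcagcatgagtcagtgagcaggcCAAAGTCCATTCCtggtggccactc

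Several sulfotransferases followed the sex of the liver in controls and at 3 days. In these 8 livers, 9 tested members were higher in every female than in every male liver, against 3.67% of all genes, and 3 were higher in every male liver. Together these are 12 members, against 4.68% of all genes. The female-higher members were Sult2a1, Sult2a2, Sult2a3, Sult2a5, Sult2a7, Sult3a1, Gstt3, Ugt1a5 and Ugt1a10, and the male-higher ones were Gstp1, Ugt2b35 and Ugt2b38. These counts are a description with no test, since the sexes were read from the libraries themselves. For such genes a comparison of all livers mixes the sexes, and the values of the 2 female controls and the 3 female 7-day livers are the closer ones.

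Sult3a1, a sulfotransferase known for its female pattern in mouse liver, stood at 0.454, 127, 151 and 0.708 eRPKM in control livers 1 to 4, 3.99, 0, 104 and 224 at 3 days and 0.496, 0.149 and 0.50 at 7 days. Control livers 2 and 3 and 3-day livers 3 and 4, all female, were far above the 4 male livers, and the 7-day livers, although female, were at the level of the males. Its reads were 2, 788, 410 and 1 in the controls and 3, 1 and 3 at 7 days. Over all livers the log2 fold change at 7 days was -3.82 (adjusted p = 0.179, SE 2.14) and did not pass. In the female livers alone it was -7.33 ± 0.33 (SE; limma adjusted p = 1.07e-05), and the adjusted p ranged up to 0.378 over the other fits. The reads at 7 days were so few that the size of this fold depends on the constant added before the logarithm.

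The Sult2a genes, a cluster on chromosome 7 whose products sulfate hydroxysteroids and bile acids, held 1 called fall, that of Sult2a7. Sult2a7 stood at 2.78, 32.0, 15.3 and 3.46 eRPKM in control livers 1 to 4, 6.49, 1.79, 9.40 and 14.7 at 3 days and 0, 0.364 and 0 at 7 days. The annotation on mm9 lists it as a pseudogene. It was detected in all controls and 3-day livers, lowest in the males, while the 7-day livers had 0, 2 and 0 reads. Its log2 fold change was -3.91 (adjusted p = 0.00169, SE 0.77) over all livers and -5.24 ± 0.41 in the female livers, and with only the 2 deepest controls it missed the threshold, at -4.11. With so few reads at 7 days the size of this fold depends on the added constant, and it was -3.14 with a pseudocount of 1 and -5.66 with 0.1.

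Sult2a1, the member with the highest control mean, stood at 0, 101, 94.0 and 0.760 eRPKM in control livers 1 to 4, 1.43, 0, 116 and 95.2 at 3 days and 25.5, 0.959 and 11.8 at 7 days. Livers 1 and 3 at 7 days lay between the female and the male livers of the other groups, liver 2 lay among the males, and no difference was called over all livers, with a log2 fold change of -0.19 (adjusted p = 0.959, SE 2.21). In the female livers the log2 fold change was -3.66 ± 0.95 and missed the threshold. Sult2a2 was at -2.41 ± 0.78 in the female livers and was not called either. Sult2a3 and Sult2a5, which had no reads in any male liver, were called as fallen in the female livers, at -3.33 ± 0.54 and -3.03 ± 0.27, and Sult2a3 had 0 reads in all 7-day livers. The Sult2a1, Sult2a2, Sult2a4 and Sult2a5 transcripts share 25.0% to 63.4% of their 50-base words with other genes, so their separate values are uncertain.

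**Figure D4:**
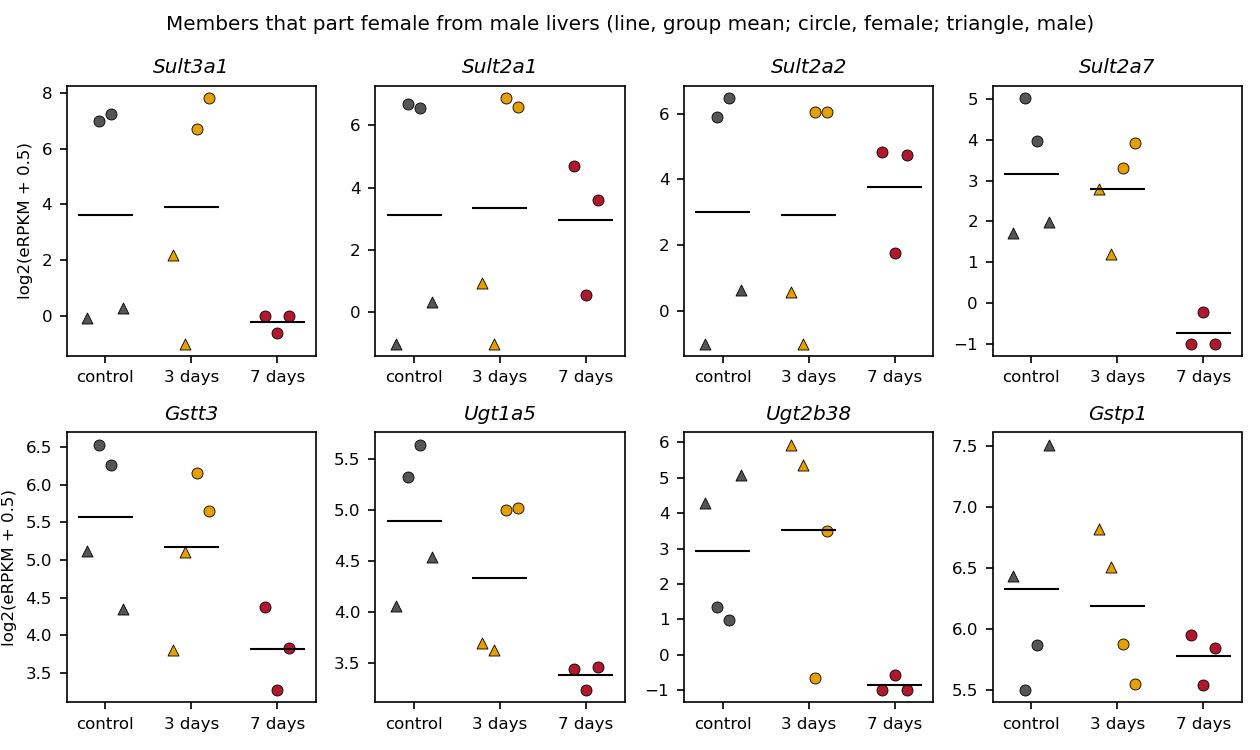
Level of 8 members as log2(eRPKM + 0.5) in every liver, by group, with a line at the group mean, circles for female and triangles for male livers. In controls and at 3 days the circles lay above the triangles for Sult3a1, Sult2a1, Sult2a2, Sult2a7, Gstt3 and Ugt1a5 and below them for Ugt2b38 and Gstp1. The 7-day livers, all female, lay at or below the male level for Sult3a1, Sult2a7 and Ugt1a5.

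Sult5a1 fell at 7 days, from 6.65, 17.8, 6.95 and 6.69 eRPKM in control livers 1 to 4, 5.34, 14.8, 15.0 and 20.2 at 3 days and 1.09, 0.984 and 1.89 at 7 days. Every 7-day liver was below every other liver, and control liver 2 stood apart from the other controls, at a height that 3 of the 3-day livers also had. On the log2 scale it changed by -2.36 (adjusted p = 0.00107, SE 0.43), and by -2.71 ± 0.40 in the female livers. Sult6b1 stayed below 1 eRPKM in all livers and was not called.

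Among the glutathione transferases 2 genes rose and 3 fell, and the mu class held both rises. Gstm2, which conjugates a wide range of electrophiles, stood at 46.1, 63.7, 91.2 and 45.9 eRPKM in control livers 1 to 4, 48.0, 67.2, 99.0 and 45.1 at 3 days and 147, 99.4 and 154 at 7 days. All 7-day livers were above all other livers, and liver 2 at 7 days was only just above the highest 3-day liver. Its log2 fold change was 1.14 (adjusted p = 0.00975, SE 0.30), but it was called in only 12 of 28 alternative fits. It was lost without control liver 1 (1.02), 2 (1.17) or 4 (1.02), without 3-day liver 2 (1.14), without 7-day liver 1 (1.06), 2 (1.34) or 3 (1.02), and in the female livers (0.78 ± 0.34). Gstm5 rose from 15.3 ± 4.38 (SD, n = 4) to 32.2 ± 2.02 (SD, n = 3), a log2 fold change of 1.08, and was called in 16 of 28 alternative fits. It was lost without control liver 1 (0.95) or 3 (1.0), in the female livers (0.98 ± 0.27) and without 7-day liver 1 (1.09), 2 (1.13) or 3 (1.04). With median-ratio size factors neither gene was called (0.87 for Gstm2 and 0.82 for Gstm5). Gstm5 overlaps exons of 4933431E20Rik.

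The Gstm2 promoter (RefSeq, GRCm38.p6, chr3:107986371-107986670, minus strand, shown 5′ to 3′) is printed as that of a member that rose. It held the letters GGAATG more than once, at positions -207 and -114, as did 1 of the 62 member promoters in all. That share is near the 1.36% of all promoters. The promoter of Gstm5, the other member that rose, did not hold these letters. Capitals mark both matches in that of Gstm2.
Gstm2 promoter: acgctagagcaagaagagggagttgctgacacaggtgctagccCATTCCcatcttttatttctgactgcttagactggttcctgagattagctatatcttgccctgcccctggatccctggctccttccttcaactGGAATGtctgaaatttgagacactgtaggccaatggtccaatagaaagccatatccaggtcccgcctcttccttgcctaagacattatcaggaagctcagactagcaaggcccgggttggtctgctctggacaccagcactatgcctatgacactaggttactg

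Gstm1, the mu gene with the highest control level, stood at 201, 161, 278 and 335 eRPKM in control livers 1 to 4, 201, 209.8, 222 and 163 at 3 days and 190.2, 149 and 188 at 7 days. The groups overlapped and it was not called, at -0.42 (adjusted p = 0.171, SE 0.23). Gstm6 fell, with 82.6, 77.7, 77.0 and 108 eRPKM in control livers 1 to 4, 83.2, 57.8, 51.9 and 61.1 at 3 days and 40.3, 55.1 and 47.7 at 7 days, and the 7-day livers lay below all controls but overlapped the 3-day livers. The log2 fold change at 7 days was -0.85 (adjusted p = 0.00369, SE 0.19). The call was lost without 7-day liver 1 (-0.73) or 3 (-0.85) and in the female livers (-0.70 ± 0.18). Gstm3, whose exons overlap those of Gstm6, had its lowest mean at 3 days, with 61.1, 45.5, 74.1 and 32.1 eRPKM in control livers 1 to 4, 19.0, 18.7, 41.1 and 8.44 at 3 days and 104, 37.5 and 106 at 7 days. It was called neither at 3 days (-1.41) nor at 7 days against control (0.55), and it rose from 3 to 7 days, by 1.96 (adjusted p = 0.00767, SE 0.48). That rise was lost without 3-day liver 1 (1.96), 2 (1.96) or 4 (1.59), without 7-day liver 1 (1.72) or 3 (1.71), and without control liver 1 (1.96) or 2 (1.96). Gstm4 (-0.47) and Gstm7 (-0.25) were not called.

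No member of the alpha, pi, omega or microsomal classes was called. Gsta3, the alpha enzyme with the highest level and known for detoxifying aflatoxin epoxide in mice, stood at 209, 182, 271 and 436 eRPKM in control livers 1 to 4, 275, 230.2, 226 and 213 at 3 days and 161, 134 and 153 at 7 days. The 7-day livers were below all controls, with a log2 fold change of -0.79 (adjusted p = 0.0238, SE 0.25). Its reads reached 1031 per kilobase, and without control liver 2 it was called, at -0.96. Gsta4, which conjugates products of lipid peroxidation, and Gsta2 were not called (0.39 and 0.25). Gsta1 stood at 2.51 ± 2.06 (SD, n = 4) in controls and 5.90 ± 2.05 (SD, n = 3) at 7 days and was not called (1.30), and 89.7% of its 50-base words recur in other genes.

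Gstp1, the pi-class enzyme known to be higher in male mouse liver, stood at 86.0, 44.8, 58.0 and 181 eRPKM in control livers 1 to 4, 112, 90.6, 58.5 and 46.4 at 3 days and 61.3, 46.0 and 57.0 at 7 days. Each male liver was above each female control and 3-day liver, and the 7-day livers lay close to the female values, with log2 fold changes of -0.55 (adjusted p = 0.313, SE 0.41) over all livers and 0.09 ± 0.20 in the female ones. Gstp2 was low, at 2.57 ± 2.31 (SD, n = 4) in controls and 5.78 ± 1.11 (SD, n = 3) at 7 days. It was not called over all livers (1.27), was called in the female livers (1.94 ± 0.32) and without control liver 1 (1.72), and shares 67.9% of its 50-base words with Gstp1.

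In the theta class, which acts on small halogenated molecules, 2 of 3 tested genes fell. Gstt1 stood at 104, 139, 161 and 142 eRPKM in control livers 1 to 4, 137, 146, 129 and 169 at 3 days and 73.9, 70.6 and 81.2 at 7 days. All 7-day livers were below all others, and the log2 fold change was -0.84 (adjusted p = 0.00177, SE 0.17). Without 7-day liver 1 (-0.83) or 2 (-0.79) the threshold was missed. Gstt2 stood at 56.0, 67.6, 68.5 and 56.1 eRPKM in control livers 1 to 4, 47.2, 38.2, 36.8 and 53.1 at 3 days and 24.0, 29.2 and 21.9 at 7 days. All 3-day livers were already below all controls, and all 7-day livers were below the 3-day livers. Its log2 fold change was -0.51 (adjusted p = 0.198, SE 0.16) at 3 days, not called, and -1.30 (adjusted p = 8.97e-05, SE 0.17) at 7 days. Gstt3, one of the female-higher members, missed the threshold over all livers (-1.74) and was called in the female livers (-2.58 ± 0.31).

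Gsto1, an omega-class enzyme with thioltransferase activity, stood at 88.6, 93.1, 94.4 and 80.2 eRPKM in control livers 1 to 4, 45.5, 67.7, 75.4 and 59.2 at 3 days and 65.5, 53.1 and 52.1 at 7 days. It was the other member with every 3-day liver below every control, where 2.25% of all genes had that pattern, and the 7-day livers were below the controls too. Neither the log2 fold change at 3 days, -0.54 (adjusted p = 0.186, SE 0.16), nor that at 7 days, -0.65 (adjusted p = 0.0109, SE 0.17), was called. It was called at 7 days without 3-day liver 1 or 3 (-0.65 in each case), with median-ratio size factors (-0.91) and with limma-voom on the recovered reads (-0.67).

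Mgst1, the abundant microsomal enzyme, stood at 312, 228, 461 and 862 eRPKM in control livers 1 to 4, 464, 332, 304 and 336 at 3 days and 210.5, 184 and 204 at 7 days. The 7-day livers were lower than every control and every 3-day liver, but its reads were nearly the same in all 11 libraries, from 1048 to 1219, so its eRPKM ran against the depth of the library. The log2 fold change was -1.04 (adjusted p = 0.0318, SE 0.35) and was not called, and without control liver 2 it was, at -1.32. Mgst3 (0.70) and Mgst2 (0.11), the latter under 1 eRPKM, were not called.

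The limit on reads touched members beyond Mgst1. Of the 52 tested members, 29 reached 300 reads per kilobase in some library, and 10 of them fell, where 22.4% of all genes at that height did. Of the 23 members under 300 reads per kilobase, 7 fell, where 2.92% of all genes did. As shares, 34.5% and 30.4% of these members fell. Sult1b1, Sult1c2, Sult2a7, Sult5a1, Ugt1a6a, Ugt1a9 and Ugt1a10 were the 7 that fell below that height. With log2 depth as a covariate 13 of the 17 falls were called, and with only the 2 deepest controls 10 were, the loss of 2 libraries included.

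**Figure D5:**
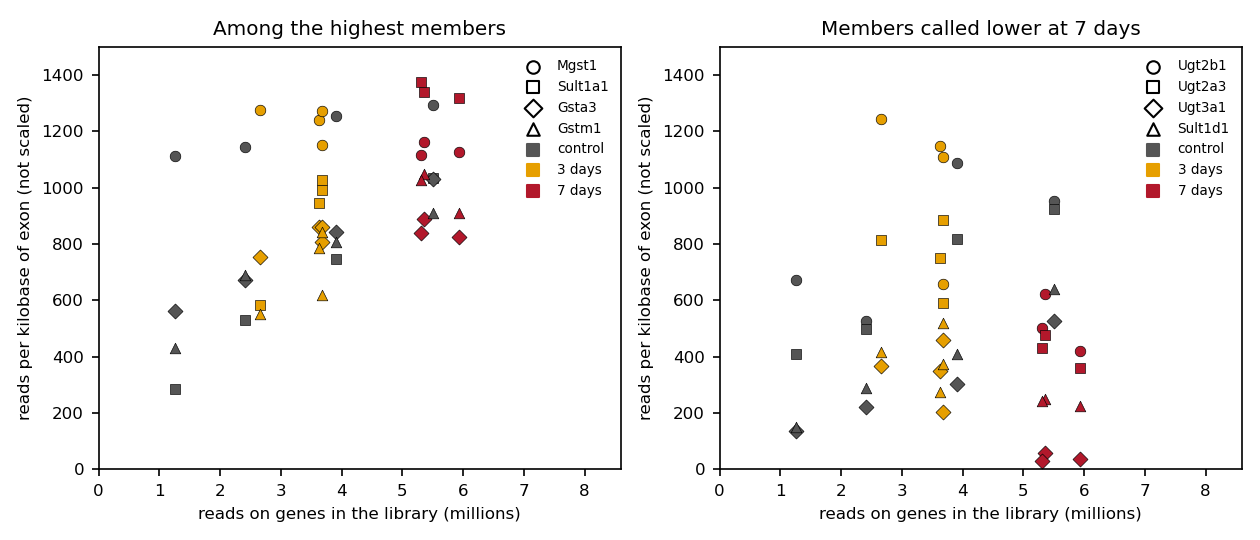
Reads per kilobase of exon, not scaled to depth, against the reads on genes of each library, with colour for the group and a symbol for the gene. On the left, Mgst1 was flat across the depths and Sult1a1 climbed with them. On the right, Ugt2b1, Ugt2a3, Ugt3a1 and Sult1d1 had fewer reads at 7 days than control liver 2, which had 5495697 reads, despite like depth.

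From 3 to 7 days 15 members fell and 1 rose, where 5.31% and 14.0% of all genes did, 19.3% in all. The 15 were Ugt1a1, Ugt1a9, Ugt1a10, Ugt2a3, Ugt2b1, Ugt2b5, Ugt2b37, Ugt3a1, Ugt3a2, Sult1b1, Sult1d1, Sult2a7, Sult5a1, Gstt1 and Gstt2. The largest called fall was that of Ugt3a1, by -3.70 (adjusted p = 5.55e-06, SE 0.29). The levels of 23 members lay lower in every 7-day than in every 3-day liver, against 13.8% of all genes, and 2 lay higher, against 31.3%. The count depended on single libraries, with 9 falls without 7-day liver 2, 9 without 7-day liver 3, and 10 without 3-day liver 4. Ugt2b5 was lost without any one of 3-day livers 1, 2 and 4 and of the 7-day livers (-1.21 to -1.47), and Ugt2b1 without 3-day liver 1, 2 or 4 or 7-day liver 2 or 3 (-1.48 to -1.71). Ugt2b37 was lost without any one 7-day liver (-2.83 to -3.36), Ugt1a10 without 7-day liver 2 (-2.36), and Ugt1a1 without 3-day liver 4 or 7-day liver 2 or 3 (-0.83 to -1.05). Sult2a7 was lost without 3-day liver 4 or any one 7-day liver (-3.17 to -3.81), and Gstt2 without 3-day liver 1 or 4 or 7-day liver 1 or 3 (-0.69 to -0.76). Gsta3, Sult1c2, Ugt2b36 and Ugt2b38 were added as falls, and Gstm2 as a rise, when some single library was left out. By comparison, among 65 tested genes of the cytochrome P450 families 1 to 4, the phase I oxidases, 22 fell and 2 rose at 7 days, with a median log2 fold change of -0.93, and 0 were called at 3 days. The difference between the enzyme sets was not tested.

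Summed over families, the levels in controls and at 7 days ran as follows, with the Ugt1a sum given above. The Ugt3 pair went from 246.5 ± 56.2 eRPKM (SD, n = 4) in controls to 50.5 ± 13.3 (n = 3) at 7 days. The Ugt2 family went from 1411 ± 609 to 655 ± 73.3 and the theta class from 254 ± 56.5 to 115 ± 4.72, each with no overlap between the groups. The Sult1 family went from 358 ± 19.4 to 284.5 ± 25.0, again without overlap, and the mu class from 534 ± 77.3 to 529.8 ± 90.5, with overlap. The sums give most weight to the highest genes, whose reads were limited.

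Genes that supply the donors were mostly not called. In the list of 4 genes for UDP-glucuronic acid supply, only Slc35d2, a nucleotide-sugar transporter, fell (-1.26 ± 0.29, SE), and its part in that supply was not tested. Ugdh, which makes UDP-glucuronic acid, was at -0.62 ± 0.22, Ugp2 at -0.26 ± 0.19 and Slc35d1 at 0.05 ± 0.23, and none of these was called. Of 6 genes of PAPS supply and clearance, Papss1, a PAPS synthase, rose (1.07 ± 0.19). Of 6 tested genes of glutathione synthesis and recycling, Gss, the glutathione synthase, rose (0.90 ± 0.17), as did G6pdx, a source of NADPH (1.83 ± 0.20), while Gclc, the rate-limiting ligase subunit, was at -0.45 ± 0.16 and not called. The median log2 fold changes of these lists were -0.44, -0.16 and 0.14, beside 0.26 for all genes.

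The counts in these and the following lists stand beside 18.0% of all genes that rose, 5.77% that fell and the median of 0.26. Calls in these lists, and those of the marker genes, come from the reported fit alone. They were not examined in the female livers, with depth as a covariate or with other scaling. Among 15 tested genes of other conjugating enzymes, 3 fell and 1 rose, with a median of -0.58. Those that fell were the N-acetyltransferases Nat1 (-1.89 ± 0.37) and Nat2 (-0.72 ± 0.17) and the nicotinamide methyltransferase Nnmt (-1.73 ± 0.29). The gene that rose was Ltc4s, the leukotriene C4 synthase known from myeloid cells (4.19 ± 0.45), from 0.680 ± 0.501 eRPKM (SD, n = 4) in controls to 20.3 ± 8.06 (n = 3) at 7 days. Of the macrophage markers named above, 2 of 4 rose in the same livers, and their part in this change was not tested. The list of 6 transporters that export conjugates had a median of -0.05. Abcc2, the canalicular carrier of glucuronides, fell (-0.89 ± 0.13), as did Abcc6 (-0.90 ± 0.19). Abcc1 (1.93 ± 0.24) and Abcc4 (1.74 ± 0.39) rose from low control means of 1.15 and 1.33 eRPKM. Abcc3 (0.33 ± 0.17), with a control mean of 82.2 eRPKM, and Abcg2 (-0.44 ± 0.31) were not called.

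Of 13 regulators of these genes, 2 fell and 1 rose at 7 days, with a median of -0.01 beside 0.26 for all genes. Nr1i3, which encodes the xenobiotic sensor CAR, fell (-1.84 ± 0.28), as did Ppara (-1.35 ± 0.17), and Nfe2l2, which encodes Nrf2, rose (0.91 ± 0.19). Hnf4a was at -0.35 ± 0.14, Nr1i2 (PXR) at -0.01 ± 0.20 and Ahr at 0.14 ± 0.19, and none of these was called. Of 8 other genes known as Nrf2 targets 3 rose, Nqo1 (1.68 ± 0.43), Hmox1 (2.78 ± 0.26) and G6pdx, with a median of 0.99. G6pdx and Slc7a11 were also counted in the glutathione list. Of 5 other target genes of AhR, CAR and PXR, Cyp1a2 fell (-3.43 ± 0.40) and none rose, with a median of -0.52, while Cyp2b10 was at 0.71 ± 0.93 and Cyp3a11 at -1.36 ± 0.38, both not called. At 3 days none of the genes in these lists was called.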

How the data were processed

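Whole-liver RNA was sequenced in pairs from TruSeq libraries on a NovaSeq. The authors masked low-quality bases and aligned the reads to mm9 with TopHat2 2.0.8 without strand information, and the submitters' processing notes also name featureCounts 1.4.5-p1 and SAMtools. Gene annotation and duplicate handling for these libraries are not given in the sources used here. The deposited values are eRPKM, an RPKM per gene and library made by the authors, and nothing was pooled. The columns of the authors' own DESeq2 comparison (mean, log2 fold change and adjusted p) were not used.

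The fit took every gene that reached 0.5 eRPKM in 3 or more libraries and used limma 3.58.1 (R 4.3.3, lmFit and eBayes with trend) on log2(eRPKM + 0.5), with all 11 libraries in one fit. Benjamini-Hochberg adjustment covered all 14244 genes. A call needed an adjusted p under 0.01 and a log2 fold change beyond 0.5. Groups came from the labels. The labels do not state separate animals, so p-values measure the spread between these samples.

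Whole reads were recovered from the step of each gene's eRPKM. The recovered reads gave depth, reads per kilobase and an alternative fit. Each of the 177553 non-zero values lay within 0.1 of an integer number of reads (100%). The gene lengths in that check came from the recovered reads themselves, so its outcome was nearly fixed and it cannot show that the recovery was right. In values simulated from known reads, 99.94% of the non-zero values gave back their reads exactly. Reads of the 14244 genes were also simulated, with 200 genes changed by 1.5 in log2 at 7 days and the dispersion estimated from the livers (0.0349). The fit recovered 161 (80.5%) of these, with 2 false calls among the unchanged genes and 1 call at 3 days, where no gene was changed. The changed genes were drawn from those with a mean above 2 eRPKM. The share recovered therefore does not hold for lower genes or for smaller changes. The simulation gave all genes the same dispersion and held no sex difference and no limit on reads per kilobase. Its false calls therefore do not measure those in the real livers. Reads without molecular identifiers are not independent molecules, so precision is at best that of counting.

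Members and lists were chosen with earlier results of these data known. In each family, values of every liver are given for the member with the highest control mean and the largest called rise and fall at 7 days, and for the largest called rise and fall from 3 to 7 days. Positions are from GENCODE M1 on mm9 (58 of 59 members matched), and promoters from RefSeq on GRCm38.p6 (52 of 59 members matched). Python 3.11.15, numpy 2.4.6, pandas 2.3.3 and matplotlib 3.10.9 were used. Alternatives are listed in the closing section.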

Additional observations from a re-analysis of the deposited data

Results flagged for a closer look

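In the control group, Sult5a1 of liver 2 stood apart from the other 3 livers. The gap to its nearest neighbour was 0.973 of the whole range of the group, more than Dixon's test allows at the 95% level. Of 42 sets of 4 livers examined over the named members this was the only one, and chance alone flags about 1 set in 20.

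For 11 of the 21 named members the change at 7 days differed from that at 3 days. The test was that of the difference itself, the contrast of 7 against 3 days in the limma fit, which called 19.3% of all genes. Most named members were picked by calls in these data, Ugt3a1 and Gstm3 also by this contrast, so the count of 11 is only a description. The log2 differences were -3.70 for Ugt3a1, -3.55 for Sult2a7, -2.87 for Sult5a1, -2.80 for Sult1b1, -2.66 for Ugt1a9, -1.77 for Ugt3a2, -1.69 for Ugt2b1, -0.99 for Ugt1a1, -0.94 for Gstt1 and -0.79 for Gstt2, and 1.96 for Gstm3. Depth and the share of female livers also differed between these groups. In the female livers alone the calls of Gstm3 (1.96), Gstt2 (-0.82), Ugt1a9 (-2.57) and Ugt2b1 (-1.33) were lost, and with log2 depth as a covariate those of Gstm3 (1.84), Ugt1a1 (-0.74) and Ugt2b1 (-1.16) were. Of these 11, the calls of Gstm3, Gstt2, Sult2a7, Ugt1a1 and Ugt2b1 were lost when some single libraries were left out, as given above.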

How the results depend on the processing

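The alternatives were pseudocounts of 1 and 0.1, no filter, a filter on the mean (1 eRPKM or more), quantile normalization, median-ratio size factors, the compared groups only, eBayes without trend or robust, a replicate block, log2 Xist, log2 depth or the label suffix MF as a covariate, female libraries only, limma-voom on recovered reads, an adjusted p under 0.05 with any fold, and each library left out. The 2 deepest controls only, and scaling to genes under 300 reads per kilobase, were chosen after seeing the data. Fold changes of the 21 named members were compared 1827 times. Of these, 1721 kept their side of the threshold, 79 lost it, 27 gained it and none of a called member reversed. Most of the compared fold changes were not called in the reported fit and so could not lose a call. Of the 79 losses, 38 were at 7 days against control, 41 from 3 to 7 days and 0 at 3 days.

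The falls at 7 days held within 1.5 times of 17 in the other fits and became 10 with the 2 deepest controls. Of the 2 rises at 7 days, Gstm2 was lost with a pseudocount of 0.1 or eBayes without trend. With log2 Xist or female libraries both were lost, and Gstp2 was called instead. With no filter Sult2b1 took the place of Gstm2, and with quantile normalization Sult1a1 took that of Gstm5. The rises became 0 with median-ratio size factors, log2 depth, the 2 deepest controls or the scaling to genes under 300 reads per kilobase. The 1 rise from 3 to 7 days became 2 with quantile normalization, the suffix MF or limma-voom, 3 with the adjusted p under 0.05, and 0 with median-ratio size factors, the compared groups only, eBayes without trend, robust eBayes, log2 Xist, female libraries, log2 depth, the 2 deepest controls or the scaling to genes under 300 reads per kilobase. With no filter Gstm3 was lost from 3 to 7 days, and Sult2b1 was called in its place. Leaving out each library gave 0 to 2 rises and 12 to 20 falls at 7 days, 0 to 2 rises and 9 to 18 falls from 3 to 7 days, and 0 calls at 3 days. The causes were not tested.

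The deviations of same-numbered livers from their group means correlated between -0.222 and 0.269, and those of differently numbered livers between -0.275 and 0.238. Differences between the sexes were left in these deviations, so they cannot decide whether the replicate numbers pair the samples. With the replicate block the rises from 3 to 7 days became 2 and the falls 12, and Gstm6 at 7 days was no longer called (-0.79).

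Depth limits the low members: with 1251396 reads in the shallowest control, a member with few reads there has a wide counting error.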
